A study of Mus musculus with 24 samples.

Results

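Macrophages differentiated in culture from mouse bone marrow (BMDMs) and labelled FosKO were compared by RNA-seq between 1 h and 2 h of stimulation with lipopolysaccharide (LPS, 100 ng/ml). This comparison used 6 of the 24 RNA-seq libraries, 3 at 1 h and 3 at 2 h, chosen by their labels, and 13901 of the 24273 genes, those with a value of at least 5 on the linear scale in at least 3 libraries. All mice were C57BL/6. The FosKO mice carried LysM-Cre, in which Cre recombinase is expressed from the lysozyme locus Lyz2 in myeloid cells, with both Fos alleles floxed (Fos-fl/fl), and the control was LysM-Cre. The series description lists no floxed allele for that control, while the study's own text adds a single one, and the values cannot tell these apart. Each genotype gave 3 libraries at 0, 0.5, 1 and 2 h, which makes 8 groups, after the same 7 days of culture in L-cell conditioned medium and a night in low serum. The study's methods call the libraries biological replicates, but neither they nor the labels say that each came from its own mouse, so p-values measure the spread between libraries, which may be technical.

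LPS binds TLR4, which signals through the adaptors MyD88 and TRIF to NF-κB, MAP kinases and IRF3. The first genes to respond, the immediate-early genes, need no new protein, and many of their transcripts are short-lived. Secondary response genes come later because they need newly made factors, remodelled chromatin or secreted mediators. Among these mediators, IFN-β acts back on the macrophage through its receptor, JAK kinases and STAT and IRF proteins to induce interferon-stimulated genes. FOS is an immediate-early protein that pairs with JUN proteins to form AP-1. The interval from 1 h to 2 h covers the decline of the first set and the onset of the second, here in cells meant to lack FOS.

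The targeted gene was examined first. In the libraries labelled FosKO, Fos was between 12.67 and 12.86 at 1 h, between 12.67 and 12.93 at 2 h, and all values given here are normalised log2 values, so that a difference of 1 is a 2-fold change. In LysM-Cre it lay between 11.02 and 11.34 at 1 h and between 9.42 and 9.61 at 2 h. At these times Fos RNA was thus higher in every library labelled FosKO than in any control library, whereas at 0.5 h it was lower, between 12.64 and 12.81 in FosKO and between 13.43 and 13.57 in LysM-Cre. A value for the whole gene does not separate the floxed part from the rest, so Fos does not verify the label, and genotype is used below as labelled. Lyz2, the locus that carries Cre, had means of 16.22 ± 0.04 (SD, n = 3) and 16.32 ± 0.03 in FosKO, whereas in LysM-Cre they were 11.24 ± 0.16 and 11.26 ± 0.15.

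Libraries of the same group correlated across genes at r of 0.995 to 0.998, and genes are not independent replicates. The read depth of each library is not known from normalised values. FosKO replicate 1 at 1 h stood apart in ribosomal RNA, with Rn18s-rs5 at 16.86, whereas the other 5 FosKO libraries compared lay between 19.13 and 19.39, so leading counts are also given without it. The tissue label was checked against 10 macrophage markers, all of which were tested, including Csf1r, Cd68, Itgam and Adgre1, and their summed level lay between 17.82 and 17.94. Summed levels of the neutrophil markers lay between 6.28 and 6.52 and of the lymphocyte markers between 8.31 and 8.39, with Ly6g, Elane and Cd3e below the filter. Both lists had no member called between 1 h and 2 h. Dendritic cell markers summed to between 6.54 and 6.69 at 1 h and between 7.08 and 7.17 at 2 h, and mast cell and basophil markers to between 6.06 and 6.36 and between 7.17 and 7.48. Xcr1, Zbtb46 and Hdc were the members called in these lists, all higher, and Flt3 and Cpa3 were below the filter. Stromal markers summed to between 9.07 and 9.41 at 1 h and between 9.28 and 9.41 at 2 h, with Pdgfrb (2.18) and Cdh5 (0.49) called higher. Most of the stromal sum came from Kdr (means of 9.12 at 1 h and 9.11 at 2 h). Cd4 made up most of the lymphocyte sum (8.10 and 8.12), and Hdc most of the mast cell and basophil sum at 2 h (7.125). Cdh5 lost its call without FosKO replicate 1 at 1 h (0.34), replicate 1 at 2 h (0.39) or replicate 2 at 2 h (0.45). Whether such cells had a part in the results was not tested. In bulk RNA, fewer cells of a type and less RNA per cell cannot be told apart.

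Between 1 h and 2 h the RNA profile of the FosKO macrophages turned over broadly. Genes of inflammation and of the interferon response rose by up to 16.3-fold and immediate-early genes fell by up to 6.73-fold. Limma with Benjamini-Hochberg adjustment called 7050 genes (50.7% of those tested) at an adjusted p under 0.05, of which 3776 were higher at 2 h (27.2%) and 3274 lower (23.6%). With a change of at least 2-fold, 403 were higher (2.9%) and 171 lower (1.23%). Without FosKO replicate 1 at 1 h the calls were 3532 higher and 3009 lower. The median change over all genes tested was 0.01. For the gene lists below, shares of members are given against the 27.2% of all genes that rose and the 23.6% that fell. In 7770 genes (55.9%) the 3 libraries of one time did not overlap those of the other. The share of higher genes among those called was 53.6%, with 42.1% under quantile normalisation (median of all genes -0.03) and 60.4% with each library centred on its median (0.05), so the balance of small changes depends on the scaling.

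**Figure D1:**
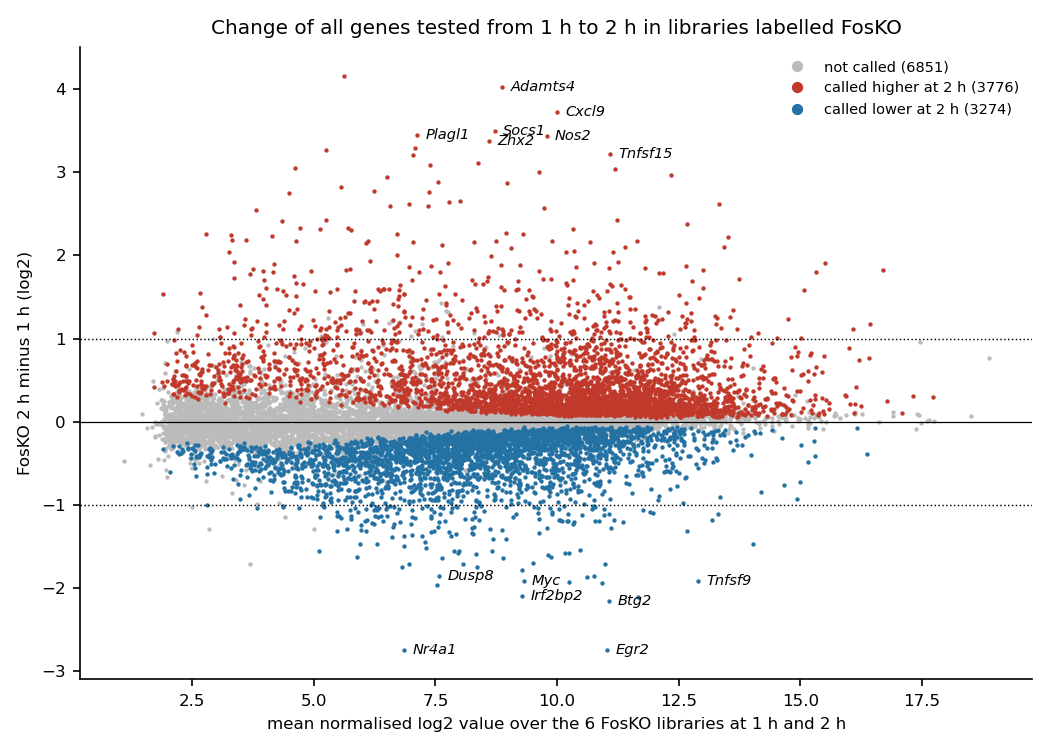
Each point is a gene, with its mean normalised log2 value over the 6 FosKO libraries on the horizontal axis and its log2 change from 1 h to 2 h on the vertical axis. Red and blue mark the 3776 genes called higher and the 3274 called lower, dotted lines mark 2-fold, and the changes past 2-fold reach further upwards (4.16) than downwards (-2.75).

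The largest rise among well-expressed protein-coding genes was in Adamts4, which codes for a protease that cleaves proteoglycans of the extracellular matrix. Adamts4 (chromosome 1, 171250421 to 171260637, GRCm38) read 6.56, 6.94 and 7.10 in the libraries at 1 h and 10.77, 11.01 and 10.90 at 2 h. Every library at 2 h was far above every library at 1 h, a rise of 4.03 (SE 0.12, limma adjusted p 3.30e-16) or 16.3-fold. After it came Cxcl9, a chemokine for T cells (3.72), Socs1, an inhibitor of JAK signalling (3.50), the zinc finger gene Plagl1 (3.45) and Nos2, the inducible nitric oxide synthase (3.44). The next were Zhx2 (3.38), Lhx2 (3.29), Mab21l3 (3.26), Tnfsf15 (3.22), Itgb8 (3.21), Cish (3.11) and Fscn1 (3.08), which together include transcription factors, a TNF family cytokine, an integrin chain, a STAT5 feedback inhibitor and an actin-bundling protein. The largest falls were in Egr2 (-2.75), Nr4a1 (-2.75), Btg2 (-2.16), Egr1 (-2.11), Irf2bp2 (-2.09), Fam214a (-1.96), Zfp36l2 (-1.94), Kdm6b (-1.93), Tnfsf9 (-1.92), Myc (-1.92), Errfi1 (-1.86) and Dusp8 (-1.85).

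The immediate-early genes declined. Of 40 listed genes 37 were tested, and 27 fell (73.0%) against 6 that rose (16.2%), with 4 not called. Their median change was -1.02, against 0.01 over all genes tested, and 19 fell by at least 2-fold. The number that fell was also 27 without FosKO replicate 1 at 1 h. Egr2, a zinc finger transcription factor of the EGR family, read 12.32, 12.47 and 12.41 at 1 h, then 9.72, 9.57 and 9.67 at 2 h. These libraries did not overlap, and the fall was 2.75 on the log2 scale (SE 0.07, limma adjusted p 3.80e-17). Its level at 2 h, 9.65 ± 0.08 (SD, n = 3), stood close to the 9.50 ± 0.07 of unstimulated cells. Nr4a1, an orphan nuclear receptor, read 8.31, 8.21 and 8.16 at 1 h and 5.48, 5.35 and 5.61 at 2 h, beside 5.61 at 0 h. Btg2, an adaptor of mRNA deadenylation, read 12.12, 12.16 and 12.18 and then 9.93, 9.97 and 10.08, beside 9.96 at 0 h. In all of these the 2 h libraries sat near the unstimulated level.

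Other immediate-early genes fell from 1 h to 2 h and ended above or below the level of unstimulated cells. Egr1 was 12.72 ± 0.07 at 1 h and 10.60 ± 0.16 at 2 h, beside 8.64 at 0 h. Junb, a partner of FOS in AP-1, read 13.81, 13.88 and 13.87 and then 12.70, 12.69 and 12.85, beside 11.44 at 0 h, a fall of 1.11 (limma adjusted p 2.42e-12). Jun read 11.94, 12.05 and 11.90 and then 10.75, 10.73 and 10.79. Unlike Junb, Jun ended below its unstimulated level of 11.62. Myc also ended lower (8.35 ± 0.18) than it began (9.65). Fosb, the closest relative of Fos, was variable at 1 h (7.34, 6.70 and 6.02) and read 4.81, 5.36 and 5.03 at 2 h, a fall of 1.62 (SE 0.27, limma adjusted p 3.85e-05).

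A few immediate-early genes did not join the decline. Nr4a3, a paralog of Nr4a1, read 6.00, 5.92 and 6.43 at 1 h and 8.90, 8.91 and 9.20 at 2 h. All 3 libraries at 2 h were thus higher, by 2.88 (SE 0.12, limma adjusted p 3.09e-14), while Nr4a1 fell. Rhob (0.67), Nr4a2 (0.51), Sgk1 (0.43), Klf4 (0.41) and Gadd45b (0.31) also rose. Atf3, an AP-1 related repressor of inflammatory genes, read 14.13 to 14.17 at 1 h and 14.09 to 14.20 at 2 h, with overlapping libraries and a change of -0.01 (95% interval -0.08 to 0.07). Rgs1, Dusp2 and Fos were not called either.

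Negative regulators of the MAP kinases declined with them. Of 15 tested members of the ERK feedback list (dual-specificity phosphatases, Sprouty and SPRED proteins), 11 fell (73.3%, 11 also without FosKO replicate 1 at 1 h) and 3 rose (20.0%), with a median of -0.54. Dusp1, the phosphatase that inactivates p38 and JNK, read 13.36, 13.30 and 13.30 at 1 h and 12.06, 11.98 and 11.96 at 2 h. Dusp4 fell by 1.71, Dusp5 by 1.41 and Spry1 by 1.31, all with libraries that did not overlap. Dusp16 (0.83), Dusp14 (0.77) and Spred1 (0.52) rose.

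Promoters of such genes are known for CArG boxes, the element bound by serum response factor (SRF), and Dusp5 and Zfp36 are shown because they fell here and carry a match. The 250 bases before the RefSeq start are printed 5′ to 3′ on the gene's strand (GRCm38.p6), with matches to the CArG box in capitals.
Dusp5 (chr19:53528895-53529144, plus strand): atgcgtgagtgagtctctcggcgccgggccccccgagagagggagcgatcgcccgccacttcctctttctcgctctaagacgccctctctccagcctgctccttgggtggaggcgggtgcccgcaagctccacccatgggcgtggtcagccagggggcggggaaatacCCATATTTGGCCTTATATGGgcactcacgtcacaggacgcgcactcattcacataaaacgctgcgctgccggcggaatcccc
Zfp36 (chr7:28379229-28379478, minus strand): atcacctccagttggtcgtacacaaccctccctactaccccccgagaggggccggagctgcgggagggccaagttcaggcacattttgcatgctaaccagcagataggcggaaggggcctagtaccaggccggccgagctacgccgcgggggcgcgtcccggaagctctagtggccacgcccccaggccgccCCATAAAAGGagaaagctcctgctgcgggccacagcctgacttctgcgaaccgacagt

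The Dusp5 promoter held 2 adjacent matches, starting 82 and 72 bases before the start, and that of Zfp36 held 1, starting 58 bases before it. Searched on both strands, a CArG box was present in 3 of 122 promoters of genes that fell by at least 2-fold (2.46%) and in 98 of 9425 promoters of all protein-coding genes tested (1.04%). In the immediate-early list 2 of 28 promoters held one. A match is a description of the sequence and not evidence of binding.

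Of 21 tested genes of the AP-1 family 9 fell (42.9%, 9 also without FosKO replicate 1 at 1 h), 7 rose (33.3%) and 5 were not called. Beside Fosb, Jun and Junb, the Fos relatives Fosl2 (-0.81) and Fosl1 (-0.51) fell, and so did Maff (-0.37). Batf2 and Batf, which code for AP-1 partners without a transactivation domain, went the other way. Batf2 rose by 1.39 and Batf by 1.19, and with them Mafk, Jdp2 (1.09) and Jund (0.35). The rises of Atf2 (0.16) and Maf (0.12) were small, and that of Maf was lost without FosKO replicate 3 at 1 h (0.09) and turned to -0.06 under quantile normalisation.

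Factors that act on mRNA decay rose and fell. Zfp36, which codes for tristetraprolin, a protein that binds AU-rich elements and brings decay enzymes to cytokine mRNAs, read 14.74, 14.80 and 14.77 at 1 h and 13.24, 13.26 and 13.38 at 2 h. Its libraries did not overlap, and its fall was 1.48 (SE 0.07, limma adjusted p 1.18e-13). The related Zfp36l2 fell by 1.94 and Zfp36l1 by 1.09. N4bp1, a ribonuclease, rose by 1.27, Rc3h1, which codes for Roquin, by 0.54 and Zc3h12a, which codes for Regnase-1, by 0.29. In all 10 of 19 tested members of the RNA decay list fell (52.6%) and 8 rose (42.1%), with a median of -0.07. Members of the NF-κB feedback list, not all of them inhibitors, were mostly higher at 2 h. Of 20 members 13 rose (65.0%) and 4 fell (20.0%), with a median of 0.35. Without FosKO replicate 1 at 1 h, 12 of these rose and 10 of the RNA decay list fell. Peli1, a ubiquitin ligase, rose by 1.87, Otud1 by 1.24 and Bcl3 by 1.19, while Nfkbid (-0.99), Nfkbiz (-0.49), Tnfaip3 (-0.41), which codes for A20, and Nfkbia (-0.20), which codes for IκBα, fell.

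**Figure D2:**
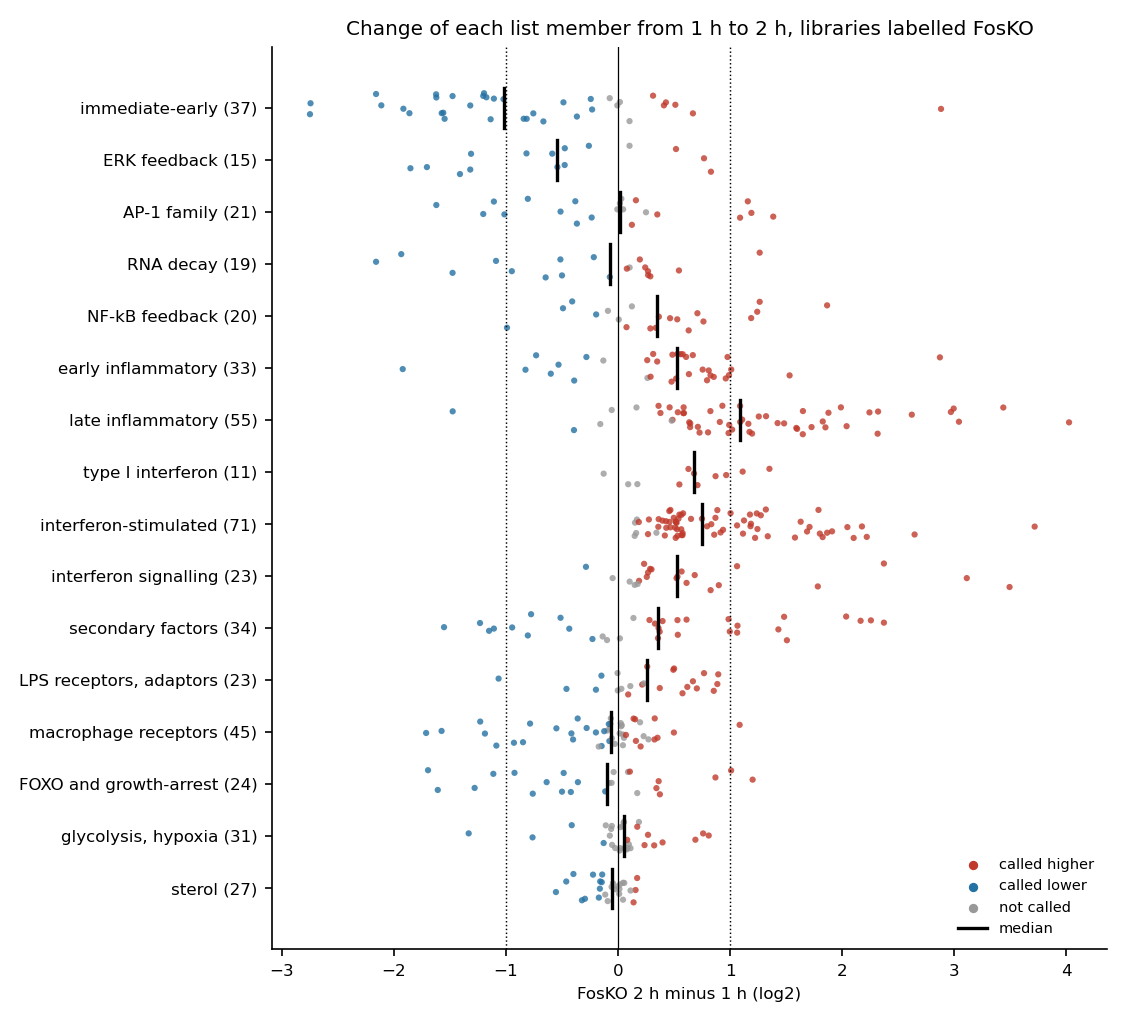
Each point is a tested member of a gene list (number of members in brackets), placed by its log2 change from 1 h to 2 h in FosKO and coloured by its call; the black bar is the list's median. Immediate-early members lie mostly left of zero (median -1.02) and late inflammatory members mostly right of it (median 1.09), whereas the sterol list stays close to zero.

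Of 33 tested early inflammatory genes 24 rose (72.7%, 24 also without FosKO replicate 1 at 1 h) and 7 fell (21.2%, near the share of all genes), with a median of 0.53. Tnf, the founding TNF family cytokine, read 16.52, 16.56 and 16.62 at 1 h, then 16.17, 16.08 and 16.27 at 2 h. The fall of 0.39 was small but its libraries did not overlap (SE 0.06, limma adjusted p 5.73e-06). The neutrophil chemokine genes Cxcl2 (-0.73) and Cxcl1 (-0.60) fell with it, as did Tnfsf9 (-1.92), the ligand of 4-1BB, and Lif (-0.83). Il1b read 14.71, 14.76 and 14.86 and then 15.30, 15.27 and 15.49, a rise of 0.58 (limma adjusted p 3.54e-06), and Il1a rose by 0.56. The monocyte chemokine genes Ccl7 (0.98), Ccl3 (0.83), Ccl4 (0.80) and Ccl2 (0.63) rose, as did Icam1 (1.01), an adhesion molecule, and Ptgs2 (0.96), which codes for cyclooxygenase-2. The largest rise of the list was in the arginine transporter gene Slc7a2 (2.87).

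Most late inflammatory genes rose. Of 61 listed genes 57 were in the table and 55 were tested, and 49 of these rose (89.1%) and 2 fell (median 1.09), with 30 rising by at least 2-fold. The count was 49 as well without FosKO replicate 1 at 1 h. Il12b, the p40 chain shared by IL-12 and IL-23, read 10.68, 10.85 and 11.05 at 1 h, then 13.77, 13.77 and 13.96 at 2 h. The rise of 2.97 (SE 0.11, limma adjusted p 6.44e-15) was 7.85-fold. Il6 (chromosome 5, 30013114 to 30019981) read 8.03, 8.05 and 8.32 and then 11.10, 10.96 and 11.34, a rise of 3.00 (SE 0.12). Il27, the p28 chain of IL-27, rose by 3.04, and its partner chain gene Ebi3 by 0.93. In all of these every 2 h library was above every 1 h library.

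Nos2 varied widely at 1 h. It read 7.47, 8.23 and 8.50 at 1 h, then 11.25, 11.65 and 11.63 at 2 h, and the rise was 3.44 (SE 0.29, limma adjusted p 2.39e-09). Its lowest value at 1 h was that of replicate 1, the library with low 18S RNA. Replicate 1 was also lowest at 0 h (7.12) and at 2 h (11.25), where its Rn18s-rs5 was high (18.91 and 19.28). Costimulatory genes Cd80 (1.65), Cd40 (1.43), Cd274 (1.26) and Cd86 (0.64) rose, and so did Cd69 (2.62), Edn1 (2.32), which codes for endothelin-1, Il15 (1.85) with its receptor chain Il15ra (1.99), and the NF-κB subunit genes Nfkb1 (1.48) and Nfkb2 (0.99). Irg1, which codes for the enzyme that makes itaconate, rose by 1.11 from an already high 15.52. The 2 members that fell were Csf2, the growth factor GM-CSF, and Il10, an anti-inflammatory cytokine. Csf2 read 6.83, 6.50 and 6.72 and then 5.34, 4.81 and 5.46, and Il10 read 6.95, 6.82 and 6.88 and then 6.38, 6.30 and 6.79. Csf2 fell by 1.48 and Il10 by 0.39 (SE 0.14, limma adjusted p 0.0193). The call of Il10 was lost without FosKO replicate 1 at 1 h (-0.36), replicate 1 at 2 h (-0.34) or replicate 2 at 2 h (-0.30).

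**Figure D3:**
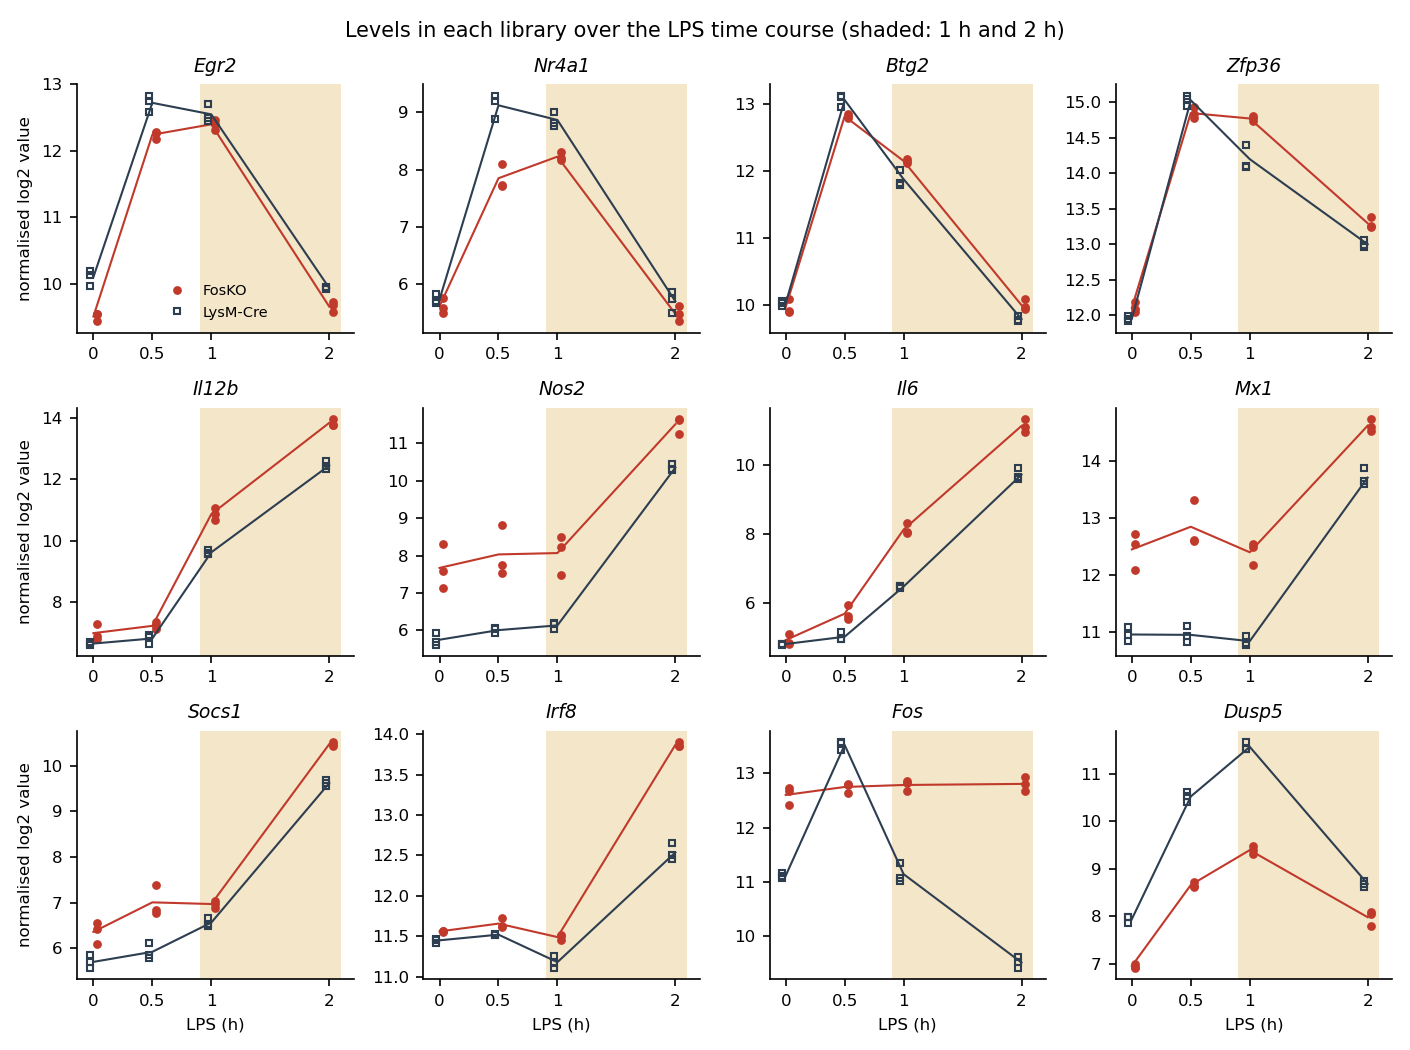
Normalised log2 values of 12 genes in each library (points; red, FosKO; dark open squares, LysM-Cre) against hours of LPS, with lines through the group means and the 1 h to 2 h interval shaded. Egr2, Nr4a1 and Btg2 drop back to about their 0 h level by 2 h, Il12b, Nos2, Il6, Mx1, Socs1 and Irf8 climb within the interval, and Fos stays flat in FosKO.

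Type I interferon genes went on rising. Ifnb1 (chromosome 4, 88522025 to 88522774, minus strand) read 12.11, 12.19 and 12.24 at 1 h, then 12.96, 12.78 and 12.93 at 2 h. The libraries did not overlap and the rise was 0.71 (SE 0.12, limma adjusted p 6.36e-05), most of the induction having come before 1 h, since Ifnb1 was 6.17 ± 0.08 at 0 h. Of 20 listed genes 11 were tested and 5 were below the filter. Ifna11, Ifna14 and Ifnab passed the filter only through their values in FosKO at 2 h and are left out of the counts. Of the other 8, 5 rose and none fell. Ifna5 rose by 1.35, Ifna6 by 1.11, Ifna9 by 0.97 and Ifna4 by 0.87, whereas Ifna1, Ifna2 and Ifna16 were not called (-0.13, 0.17 and 0.09). The Ifna genes are near-identical and can share reads, so values of single members are uncertain.

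Interferon-stimulated genes rose almost as a whole. All 71 were tested, 66 rose (93.0%) and none fell, with changes from 0.15 to 3.72 and a median of 0.75, against 0.01 over all genes tested. At least 2-fold rises were seen in 28. Without FosKO replicate 1 at 1 h the number that rose was 64. Mx1, a GTPase that blocks influenza and related viruses, read 12.17, 12.54 and 12.48 at 1 h and 14.52, 14.59 and 14.73 at 2 h. No library overlapped, and the rise was 2.22 (SE 0.16, limma adjusted p 3.63e-10). At 0 h Mx1 had already stood at 12.45, so its level at 1 h was that of unstimulated cells. Rsad2, which codes for viperin, read 15.51, 15.95 and 15.90 and then 17.59, 17.61 and 17.66, a rise of 1.83. Cxcl10, a chemokine for T cells, rose by 1.91, Cxcl11 by 2.65, Ifit1 by 1.58 and Isg15, a ubiquitin-like modifier, by 0.83. Of the 5 members not called, 4 were Sp100 (0.15), Bst2 (0.16), Oas3 (0.17) and Ifi44 (0.34). Oas3 was called once FosKO replicate 3 at 1 h was left out (0.20).

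Components and brakes of interferon signalling rose unevenly. Of 23 tested genes 18 rose (78.3%, 18 also without FosKO replicate 1 at 1 h) and 1, Ticam1, which codes for TRIF, fell by 0.29. Socs1 read 6.97, 7.04 and 6.89 at 1 h and 10.42, 10.47 and 10.51 at 2 h. This rise of 3.50 (SE 0.13, limma adjusted p 9.07e-15) was 11.3-fold. Cish rose by 3.11 and Jak2, a kinase of cytokine receptors, by 1.78. Usp18, a brake on the interferon receptor, rose by 1.06. Irf8 (chromosome 8, 120736358 to 120756694), a lineage factor of myeloid cells, read 11.46, 11.51 and 11.51 and then 13.85, 13.85 and 13.90. The libraries of each time lay close together, and the rise was 2.37 (SE 0.04, limma adjusted p 1.68e-19). Stat2 rose by 0.52, while Irf3 and Socs3 were not called.

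Rsad2 and Socs1 promoters are shown because the interferon-stimulated response element (ISRE) is bound by IRF proteins, alone or with STAT proteins. As before, 250 bases upstream are printed, with matches to the ISRE core GAAANNGAAA on either strand in capitals for Rsad2 and Socs1. Cxcl10 is shown for its matches to the NF-κB motif, which are in capitals, and its promoter also holds the ISRE core, left in lower case here.
Rsad2 (chr12:26456453-26456702, minus strand): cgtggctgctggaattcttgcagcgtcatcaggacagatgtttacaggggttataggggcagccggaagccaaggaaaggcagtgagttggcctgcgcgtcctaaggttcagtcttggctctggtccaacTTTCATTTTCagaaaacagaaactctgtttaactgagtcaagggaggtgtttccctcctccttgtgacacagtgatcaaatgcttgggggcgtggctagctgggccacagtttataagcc
Socs1 (chr16:10785537-10785786, minus strand): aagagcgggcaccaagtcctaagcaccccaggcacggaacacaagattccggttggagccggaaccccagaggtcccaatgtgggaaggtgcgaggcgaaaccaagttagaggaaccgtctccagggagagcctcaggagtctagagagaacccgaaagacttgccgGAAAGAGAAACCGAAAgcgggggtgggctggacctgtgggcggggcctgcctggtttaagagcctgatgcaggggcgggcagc
Cxcl10 (chr5:92348890-92349139, minus strand): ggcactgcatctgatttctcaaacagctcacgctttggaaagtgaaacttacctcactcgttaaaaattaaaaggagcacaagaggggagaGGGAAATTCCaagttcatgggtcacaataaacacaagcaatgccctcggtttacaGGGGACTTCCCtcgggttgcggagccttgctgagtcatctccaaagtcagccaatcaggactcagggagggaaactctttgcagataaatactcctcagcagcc

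The ISRE core was present in 36 of 275 promoters of genes that rose by at least 2-fold (13.1%), in 1 of 122 of those that fell by at least 2-fold (0.82%) and in 280 of 9425 of all protein-coding genes tested (2.97%). In the interferon-stimulated list 22 of 55 promoters held it (40.0%). The AP-1 sequence TGANTCA stood in 25 of the 275 promoters of the risers (9.09%), 6 of the 122 of the fallers (4.92%) and 400 of all (4.24%), and the NF-κB motif in 30 (10.9%), 14 (11.5%) and 817 (8.67%). RefSeq promoters were matched to 79.1% of the 11921 protein-coding genes tested. A gene without a match lacks these letters in this window only.

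Of 34 tested transcription factors of the secondary response 20 rose (58.8%, 20 also without FosKO replicate 1 at 1 h) and 10 fell (29.4%), with a median of 0.36. Besides Irf8, the risers included Hivep2 (2.26), Stat5a (2.17), Hivep3 (2.04), Nfil3 (1.51) and Arid5a (1.43). Stat5a, which transmits signals from GM-CSF and IL-3 receptors, read 9.49, 9.57 and 9.71 at 1 h and 11.70, 11.74 and 11.83 at 2 h. Among the fallers, Cebpb, a partner of NF-κB at inflammatory genes, read 9.38, 9.34 and 9.59 and then 7.84, 7.65 and 8.15, a fall of 1.55 (SE 0.13, limma adjusted p 3.69e-09). Id3 (-1.23), Irf4 (-1.15) and Prdm1 (-0.94) fell too. For both genes shown, the groups were apart in every library.

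Genes for sensing LPS changed little and mostly upwards. In the list of Toll-like receptors and their adaptors 14 of 23 rose (60.9%), 4 fell (17.4%) and the median was 0.26. Map3k8, which codes for TPL-2, the kinase that activates ERK downstream of NF-κB1 p105, rose by 0.90, Irak2 by 0.89, Tlr2 by 0.85 and Myd88 by 0.62. Tlr4 fell by 0.20. Tab1, a subunit of the TAK1 kinase, read 7.51, 7.62 and 7.53 at 1 h and 6.50, 6.49 and 6.47 at 2 h, and was the member of this list that changed by 2-fold (-1.07, limma adjusted p 2.10e-11). In the macrophage receptor list 18 of 45 fell (40.0%) and 10 rose (22.2%), with a median of -0.06. With FosKO replicate 1 at 1 h left out, 14 of the first list rose and 17 of the second fell. Cnr2, the cannabinoid receptor of immune cells, read 7.81, 7.79 and 7.81 and then 6.09, 6.03 and 6.16, and Cd300lb (-1.57) and Cxcr4 (-1.19) fell as well. Under quantile normalisation 28 of these receptors fell, so the count of small falls depends on the scaling.

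Foxo3, a factor of quiescence and stress resistance, read 10.59, 10.60 and 10.67 at 1 h and 8.96, 9.14 and 8.92 at 2 h. In the list of FOXO, sestrin and growth-arrest genes 12 of 24 fell (50.0%) and 7 rose (29.2%), and Irs2, the insulin receptor adaptor, fell by 1.70, Sesn1 by 1.28 and Sesn2 by 1.11. Ccng2, Pik3ip1 (1.01) and Txnip (0.87) rose. Of 31 glycolysis and hypoxia genes 18 were not called, 9 rose (29.0%), among them Slc2a6 (0.81) and the hexokinase gene Hk2 (0.76), and 4 fell (12.9%). Vegfa, the endothelial growth factor, read 8.79, 9.08 and 8.89 and then 7.59, 7.59 and 7.58, a fall of 1.33. Among 27 sterol genes 11 fell (40.7%) and 3 rose (11.1%), none by more than 0.55. Without FosKO replicate 1 at 1 h, 11 of the growth-arrest list and 11 of the sterol list fell, and 8 glycolysis genes rose. Of 10 macrophage markers 6 were not called, and Adgre1 (0.37), Spi1 (0.35) and Tyrobp (0.10) rose. Under quantile normalisation Adgre1 was not called (0.06) and Tyrobp turned to -0.12.

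The order of induction was then taken from changes between LysM-Cre groups, whose means use no FosKO library. The calls of these changes came from the fit to all 24 libraries, so the spread of the FosKO libraries entered them. Genes that rose by 1 h and fell by 2 h in the control (early falling) mostly fell in FosKO too, with 90 of 112 called lower, 2 higher and a median of -0.57. Genes that rose at 1 h and were not called after it (early held) had a median of 0.21, with 26 of 60 higher and 2 lower. Genes still growing at 2 h had 144 of 153 higher, 1 lower and a median of 0.83. Genes that first rose at 2 h (late) had 195 of 197 higher and none lower, with a median of 1.28 and 144 past 2-fold. Those that fell late had 88 of 92 lower (median -0.91), among them Fam214a (-1.96), Gab3 (-1.39) and Ccnf (-1.38).

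Of 180 genes that had fallen by 1 h in the control (early repressed), 48 rose (26.7%, against 27.2% of all genes tested), 23 fell and 109 were not called, with a median of 0.23. The zinc finger gene Zfp324 rose by 1.52. Gm28635 (1.42) was not called, and its libraries at 1 h read 4.59, 8.32 and 7.80, the first being the library with low 18S RNA. Of 16 genes that rose by 0.5 h and fell by 1 h in the control (rapid), 11 fell, 2 rose and the median was -0.88, with Ier2 (-1.57) after Btg2 and Egr1. Without FosKO replicate 1 at 1 h the early falling count was 88, the early growing 143, the late 190, the late repressed 87 and the early repressed risers 44.

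**Figure D4:**
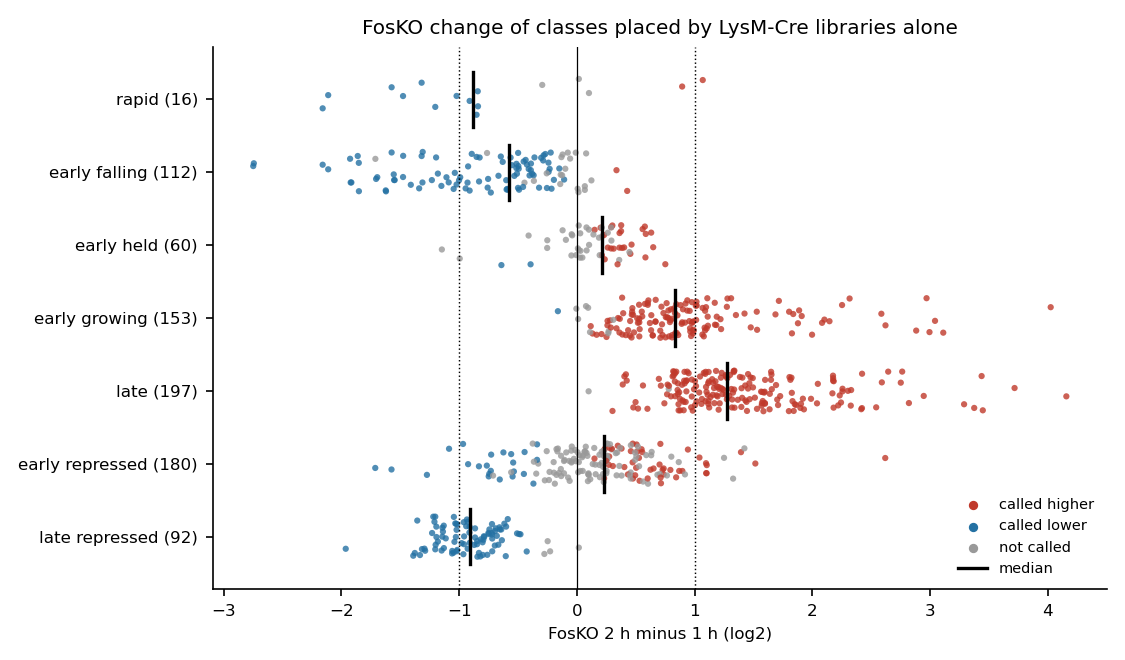
Each point is a gene of a kinetic class that was placed by changes between LysM-Cre groups (number of genes in brackets), at its log2 change from 1 h to 2 h in FosKO, coloured by its call, with the class median as a black bar. The medians run from -0.91 for late repressed genes to 1.28 for late genes, and the early repressed class lies on both sides of zero.

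The change from 1 h to 2 h was then compared with that in LysM-Cre, which used 6 other libraries. In LysM-Cre 7276 genes were called (52.3%), 3827 higher (27.5%) and 3449 lower (24.8%), and 451 rose (3.24%) and 215 fell (1.55%) by at least 2-fold. Among the 403 genes at least 2-fold higher in FosKO, 391 were also called higher in LysM-Cre, 12 were not called and 0 were called lower, and the medians of these genes were 1.34 in FosKO and 1.30 in LysM-Cre. These counts include 4 genes that passed the filter only through their values in FosKO at 2 h. Whether these are among the 12 was not examined. Among the 171 genes at least 2-fold lower, 169 were called lower in LysM-Cre and 2 were not called. The difference between the changes, FosKO minus LysM-Cre, was called in 1619 genes (11.6%), of which 823 were positive (5.92%) and 796 negative (5.73%). The balance depends on the scaling, with 588 positive and 803 negative under quantile normalisation and 1034 and 641 with each library centred on its median. The difference was at least 2-fold in 20 positive genes (0.144%) and 11 negative genes (0.0791%). The latter count ranged from 7 to 17 when 1 library was left out, with 17 when this was FosKO replicate 1 at 1 h. Leaving out FosKO replicate 1 at 1 h gave 701 positive and 704 negative differences. Restricted to libraries with high 18S RNA, which leaves a single LysM-Cre library at 1 h, 611 genes were called.

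Fos itself differed most among the well-expressed genes. It changed by 0.02 in FosKO and by -1.63 in LysM-Cre (difference 1.65, SE 0.13, limma adjusted p 7.30e-08). Dusp5 was 9.39 ± 0.08 at 1 h and 7.98 ± 0.17 at 2 h in FosKO, against 11.56 ± 0.08 and 8.68 ± 0.06 in LysM-Cre. Its fall was therefore smaller in FosKO (difference 1.47, SE 0.10, limma adjusted p 2.09e-08), from a 1 h level that was lower. Klf4, a zinc finger factor, rose in FosKO from 8.66, 8.76 and 8.85 to 9.01, 9.21 and 9.29 and fell in LysM-Cre from 8.77 ± 0.03 to 7.90 ± 0.03 (difference 1.28). Zfp36l1 fell by 1.09 in FosKO and by 2.23 in LysM-Cre (difference 1.14).

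Several transcription factors climbed more, or declined less, in FosKO. Irf8 rose by 2.37 in FosKO and by 1.36 in LysM-Cre (difference 1.02, SE 0.06, limma adjusted p 2.41e-09). Lhx2 (1.25), Plagl1 (1.09), Bhlhe40 (1.06), Arid5a (0.83), Egr3 (0.74) and Myc (0.56) also had positive differences. In the secondary factor list 11 of 34 differences were positive and 1 negative, in the immediate-early list 11 of 37 and 3, in the AP-1 family 7 of 21 and 1, and in the ERK feedback list 5 of 15 and 1, against 5.92% positive and 5.73% negative among all genes tested. The cytokine genes Il1a (0.55) and Il1b (0.52) rose in FosKO and were not called in LysM-Cre (0.01 and 0.06). For Lhx2 the difference was no longer called once FosKO replicate 1 at 1 h was left out (0.96), and the same held for replicate 3 at 1 h (1.19) and replicate 1 at 2 h of LysM-Cre.

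Other genes rose less in FosKO. Ccl17, a chemokine for type 2 helper T cells, read 2.24, 2.46 and 2.79 at 1 h and 4.11, 3.78 and 4.79 at 2 h in FosKO and went from 2.66 ± 0.10 to 5.80 ± 0.01 in LysM-Cre (difference -1.41, SE 0.24, limma adjusted p 0.000473). The related chemokine gene Ccl22 had a difference of -0.77, the prostaglandin E2 synthase gene Ptges -0.85, the prostaglandin E2 receptor gene Ptger2 -0.96 and Marco, a scavenger receptor, -0.70. Klhl42 fell by 0.73 in FosKO and rose by 0.32 in LysM-Cre (difference -1.05). Bahcc1 (difference -1.02) rose by 0.80 in LysM-Cre, while its change in FosKO was -0.22, which was not called once replicate 3 at 1 h (-0.12), replicate 1 at 2 h (-0.15) or replicate 3 at 2 h (-0.22) of FosKO was left out. Csrnp2 (-0.94) and Dph2 (-0.86) were not called in FosKO.

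For Ifnb1 the difference of -0.18 was not called (SE 0.18, limma adjusted p 0.609), although its level at 1 h was 12.18 ± 0.06 in FosKO and 8.99 ± 0.23 in LysM-Cre. Ifna5 rose by 1.35 in FosKO and by 0.29 in LysM-Cre (difference 1.06, limma adjusted p 8.65e-05). In the interferon-stimulated list 0 of 71 differences were positive and 4 negative (5.63%, against 5.73% of all genes tested), those of Mx2 (-0.94), Ifit1 (-0.84), Oasl1 (-0.76) and Stat2 (-0.50), and the list's median was -0.15. These 4 genes started from higher levels in FosKO at 1 h. Mx2 was 10.54 ± 0.10 in FosKO and 9.21 ± 0.09 in LysM-Cre at 1 h, and 12.72 ± 0.09 and 12.33 ± 0.12 at 2 h. The call of Stat2 was lost without any of 6 single libraries (-0.46 to -0.48) and that of Oasl1 without LysM-Cre replicate 3 at 2 h (-0.65). The differences of Rsad2 (-0.78), Cxcl10 (-0.78) and Nos2 (-0.78) were not called, although that of Rsad2 was without FosKO replicate 1 at 1 h (-0.92).

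**Figure D5:**
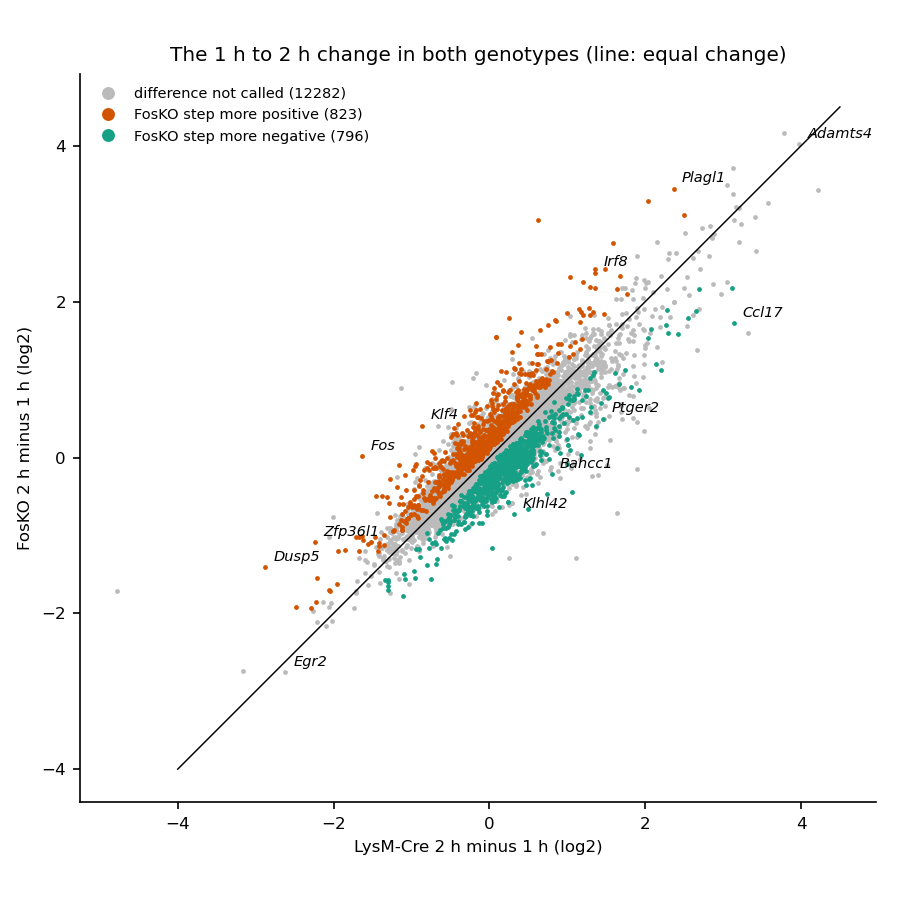
Each point is a gene, with its log2 change from 1 h to 2 h in LysM-Cre on the horizontal axis and in FosKO on the vertical axis; the line marks equal change. Most genes lie along the line, including Egr2 and Adamts4, while the 823 genes with a more positive change in FosKO (orange, such as Fos and Dusp5) and the 796 with a more negative change (green, such as Ccl17) lie to either side.

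Risers and fallers were also compared in gene structure, which the tests did not use. Of the 403 genes that rose by at least 2-fold, 351 were protein-coding (87.1%), and of the 171 that fell, 164 were (95.9%), against 85.8% of all genes tested. Median length from start to end on GRCm38 was 27900 bp in the protein-coding risers and 19241 bp in the fallers, with 23781 bp in all genes tested and 20288 bp in genes not called. Risers and fallers had a median of 8 exons each. The risers had a median level 0.20 above the unstimulated level at 1 h and 1.67 above it at 2 h. For the fallers these were -0.06 and -1.19, medians that do not describe single genes. Among the fallers named above, Egr2 returned to near its unstimulated level, whereas Jun and Myc ended below theirs.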

How the data were processed

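The authors prepared strand-specific TruSeq libraries, and the submitters' processing notes name STAR 2.5.2a, RSEM 1.2.31, DESeq2 1.16.1 and GRCm38 (the methods give another DESeq2 version). The deposited table held normalised log2 values, one per gene and library, between -2.22 and 19.39, without read counts, so the depth of each library is unknown, and the methods give only a typical yield. If the normalisation shrank low values, changes of weakly expressed genes are understated. The study's count model could not be run on these values. Instead limma 3.58.1 (R 4.3.3, empirical Bayes with trend) was fitted to 8 group means over 24 libraries (16 residual degrees of freedom) for genes with at least 5 on the linear scale in at least 3 libraries, with Benjamini-Hochberg adjustment over 13901 genes and calls at an adjusted p under 0.05. With 3 libraries against 3, an exact permutation test cannot reach a p below 0.1 and was not used. On simulated data the fit for FosKO 2 h against 1 h recovered 98% of the genes given a log2 change of 1. It recovered 80% of those given 0.5 (4 false of 182 calls). For the difference of changes it recovered 88% and 66% (10 false of 164). These runs made far fewer calls than the deposited table gave (7050 and 1619). Whether the rates hold for the deposited table was not tested.

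Identifiers were looked up in GENCODE M21 (99.6% found). Genes named are members of 22 lists, the 12 largest rises and falls (protein-coding, called, linear mean 50 or more, times not overlapping), the 6 largest differences each way, and the 3 leading genes of each kinetic class. The members and lists were chosen with earlier results of these data known. Early classes rose or fell by at least 2-fold at 1 h in LysM-Cre. Late classes changed by under 1.5-fold at 1 h and by at least 2-fold at 2 h. Alternatives were a pseudocount, other filters, scalings and samples, a replicate block, an 18S term and leaving out each library. Values of some genes are not reported here.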

Additional observations from a re-analysis of the deposited data

Results flagged for a closer look

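The change from 1 h to 2 h differed between FosKO and LysM-Cre in 1619 genes by limma's test of the difference itself, and the genes named in the text are listed here with their differences (FosKO minus LysM-Cre, log2). Positive differences were found for Fos (1.65), Dusp5 (1.47), Klf4 (1.28), Lhx2 (1.25), Zfp36l1 (1.14), Plagl1 (1.09), Bhlhe40 (1.06), Ifna5 (1.06) and Irf8 (1.02). Smaller ones were found for Arid5a (0.83), Egr3 (0.74), Myc (0.56), Il1a (0.55) and Il1b (0.52). Negative differences were found for the chemokine genes Ccl17 (-1.41) and Ccl22 (-0.77), the prostaglandin genes Ptger2 (-0.96) and Ptges (-0.85), and Klhl42 (-1.05), Bahcc1 (-1.02), Csrnp2 (-0.94), Dph2 (-0.86) and Marco (-0.70). Among interferon-stimulated genes they were found for Mx2 (-0.94), Ifit1 (-0.84), Oasl1 (-0.76) and Stat2 (-0.50). Groups of 3 libraries were not tested for a single outlying library.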

How the results depend on the processing

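The count of genes called between 1 h and 2 h ranged from 6426 to 6713 when any 1 FosKO library was left out, against 7050 with all. Over all genes tested, deviations of same-numbered 1 h and 2 h libraries from their group means correlated at -0.001 to 0.022 in FosKO. In LysM-Cre they correlated at 0.025 to 0.09, so the numbers were not taken as pairs. Single genes could still keep an order. In FosKO, replicate 3 was highest at 0, 0.5, 1 and 2 h for Il6 and Il12b. Replicate 2 was lowest at each of these times for Fos, whereas Egr2 kept no such order. Each LysM-Cre library correlated best with its own number and FosKO replicate 1 did not, a hint from the data and not the design. With a replicate block 3931 genes were higher and 3403 lower, and 1085 and 926 differences were positive and negative. Using high 18S libraries only, 611 differences were called (286 positive, 325 negative). Negative differences of at least 2-fold numbered 11, but 7 under the stricter filter, 19 with high 18S libraries only, and 7 to 17 when 1 library was left out. The highest, 17, came when the FosKO 1 h library with low 18S RNA was dropped. Under quantile normalisation 28 macrophage receptors fell, 1 macrophage marker rose (3 otherwise), and medians turned to -0.0788 for glycolysis and hypoxia and -0.1802 for macrophage markers. Under the same scaling Lyz2 (-0.52), Cd68 (-0.19), Itgam (-0.17), Tyrobp (-0.12) and Maf (-0.055) turned negative. The causes were not tested. Of 183 genes named, 18 changed their call or sign for the 1 h to 2 h change under some alternative, and 8 of 31 did for the difference. Depth per library is unknown, and small changes of weakly expressed genes may be missed.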
